A study of Mus musculus with 4 samples.

Results

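The genes described here encode negative regulators of cytokine signalling, namely the 8 members of the suppressor of cytokine signalling (SOCS) family, Cish and Socs1 to Socs7, and the tyrosine phosphatases Ptpn1 and Ptpn6. ATAC-seq, in which the Tn5 transposase cuts accessible DNA, was performed on bone marrow-derived macrophages (BMDMs) from wild-type C57BL/6 mice aged 8-12 weeks. All cells were differentiated for 6 days with L929 supernatant as the source of M-CSF. The control group (n = 2) received no further treatment and the IL-4 group (n = 2) received IL-4 at 20 ng/ml for 1 h, so the comparison asks which accessible regions of these genes differed after brief IL-4 exposure. The labels do not say whether the replicates came from separate animals; the methods call them biological replicates, and the p-values measure only the spread between these samples. Peaks of the 4 libraries were merged where they overlapped by at least 1 bp, and each region took the gene name of its highest peak. Of 60710 regions, 76 carried the name of 1 of the 10 genes. A gene name in the files is that of the nearest transcription start site (TSS) and does not show which gene a region acts on.

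When IL-4 binds its receptor, JAK kinases phosphorylate the receptor tail and the transcription factor STAT6, which then enters the nucleus and binds DNA as a dimer. SOCS proteins are part of the brake on this pathway. Each carries an SH2 domain, which binds phosphorylated tyrosines, and a SOCS box, which recruits a ubiquitin ligase, and several of their genes are themselves transcribed in response to STAT proteins. PTPN1 (PTP1B) removes phosphates from JAK kinases, and PTPN6 (SHP-1) is an SH2-containing phosphatase of blood cells.

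STAT dimers bind a pair of inverted half-sites, TTC and GAA. Most STAT proteins prefer 3 bases between the half-sites (TTCNNNGAA), whereas STAT6 also binds with 4 bases between them (TTCNNNNGAA). Both strings read the same on either strand, overlapping matches were counted, and 1 stretch cannot match both spacings with the same half-sites. The sequences below were taken from the GRCm38.p6 reference, are written on the plus strand, and were chosen because they hold the most matches among the regions of Cish and Socs1. Capitals mark the matches. The Cish stretches, at chr9:107296659-107296678 and chr9:107296764-107296789, lie in the noncoding part of exon 1 in RefSeq, inside the TSS region of the gene.
Cish TSS region, upstream pair: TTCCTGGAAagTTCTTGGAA
Cish TSS region, downstream pair: TTCTAGGAAgatgaggcTTCCGGGAA
The Socs1 promoter stretch spans chr16:10785971-10786193, within the region Socs1 -583 (named by the distance of its peak centre from the TSS in bp). Its first capital run has the 3-base spacing and the other 3 have the 4-base spacing.
Socs1 promoter: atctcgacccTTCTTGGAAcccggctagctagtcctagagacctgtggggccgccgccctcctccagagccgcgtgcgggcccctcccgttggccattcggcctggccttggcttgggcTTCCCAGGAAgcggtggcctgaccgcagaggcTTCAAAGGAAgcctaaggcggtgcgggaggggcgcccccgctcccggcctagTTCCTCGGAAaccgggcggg
The distal Socs1 stretch, at chr16:10695199-10695261 in intron 21 of Clec16a, holds 2 matches with the 4-base spacing.
Socs1 distal: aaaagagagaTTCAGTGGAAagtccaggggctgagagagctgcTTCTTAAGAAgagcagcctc

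The next 2 sequences come from regions that had peaks in only 1 of the groups. The Socs7 region at chr11:97400400-97400595, which had peaks in both IL-4 libraries and in no control library, held neither STAT spacing. Of all such regions, 30.9% held the 4-base and 12.2% the 3-base spacing. The Socs7 region is shown whole.
Socs7 distal: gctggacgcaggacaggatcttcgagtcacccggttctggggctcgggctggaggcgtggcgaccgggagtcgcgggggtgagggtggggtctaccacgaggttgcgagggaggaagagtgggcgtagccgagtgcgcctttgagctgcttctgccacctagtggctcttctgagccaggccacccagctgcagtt
The Socs3 stretch at chr11:117941596-117941683 belongs to a region with peaks in both control libraries and in no IL-4 library. Capitals mark matches to TGACTCA, the site of AP-1 (Fos and Jun dimers), on either strand. The region was chosen because it held this site. Of the 6 regions of these genes with peaks in both control libraries alone, 1 held it (16.7%, against 22.7% of all such regions).
Socs3 distal: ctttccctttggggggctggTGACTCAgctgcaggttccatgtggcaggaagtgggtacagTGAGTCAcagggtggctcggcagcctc

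Each peak carries a score, called peak height here, which was taken to be the MACS2 q-value on a −log10 scale. No label states this unit, which was inferred from the values. A height reflects evidence for a peak within its own library, depends on depth, and cannot be turned into reads, so depth is unknown. The libraries held 39462 to 45250 peaks, with a median height of 6.41 in IL-4 replicate 2 and 7.46 to 8.04 in the other libraries. Promoter peaks in all 4 libraries were found at 6 of 9 macrophage marker genes, with a summed height of 71.6 to 115, and the T cell and B cell markers (0 of 5 each) had none. The neutrophil list had 1 of 5 (S100a8, summed height 2.49 to 8.84), and Csf1r, a defining macrophage gene, had no peak within 1 kb of its TSS. The fibroblast list had 1 promoter peak, in control replicate 1 alone (Pdgfra, 5.44). The SOCS and phosphatase genes gave 53 and 48 peaks in control replicates 1 and 2 and 54 and 41 in IL-4 replicates 1 and 2. The means were 50.5 ± 3.54 and 47.5 ± 9.19 (SD, n = 2), a difference of -3.0 that is smaller than the spread between the IL-4 libraries (two-sided exact permutation test, p = 1.0; 0.333 is the smallest p that 2 against 2 allows). Their median heights were 6.96 and 7.54 in control and 7.34 and 7.86 in IL-4 libraries, a difference of 0.350 (two-sided exact permutation test, p = 0.667). IL-4 replicate 2 therefore had the fewest of these peaks but the highest median among them.

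The regions were unevenly shared out among the genes. Socs6 had 19 regions, Socs1 16, Ptpn1 15 and Socs3 9, which together made up 59 of the 76. Ptpn6 and Socs7 had 4 each, Cish and Socs5 3 each, Socs2 2 and Socs4 1. Of the 76 regions, 15 lay within 1 kb of the TSS and 7 lay beyond 100 kb. Intergenic regions made up 41 of 76 (54.0%, against 35.8% of all regions), introns 20 (26.3% against 40.2%) and promoter-TSS regions 13 (17.1% against 18.8%). Of the 16 Socs1 regions, 10 lay in introns of Clec16a, the neighbouring gene.

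**Figure D1:**
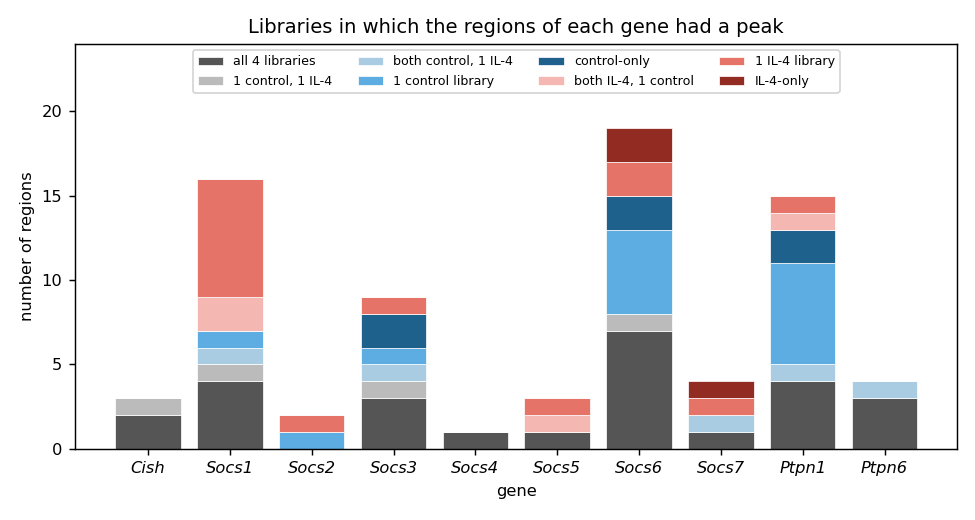
Number of regions (y axis) of each gene (x axis), coloured by the libraries in which they had a peak. Socs1 had 7 regions with a peak in 1 IL-4 library, whereas Ptpn1 had 6 and Socs6 5 with a peak in 1 control library.

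A peak was present in all 4 libraries in 26 of 76 regions (34.2%, against 41.9% of all regions), and 48 regions had a peak in at least 2 libraries. A further 28 had a peak in 1 library only, 14 in an IL-4 library (18.4%, against 13.5% of all regions) and 14 in a control library (18.4%, against 16.1%), with heights of 2.07 to 12.9 and a median of 4.11. Of the 14 in an IL-4 library, 13 were found in IL-4 replicate 1 and 1 in IL-4 replicate 2. The 2 control libraries contributed 8 and 6. At these genes the single-library peaks of the IL-4 group thus came almost wholly from replicate 1, with 6 of the 13 at Socs1. Those of the control group came from both libraries. Over all regions the IL-4 libraries were close. With IL-4 replicate 1 kept alone, 5669 regions had its peak and none in either control library, and with replicate 2 kept alone 5820 did.

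The TSS regions were accessible in all 4 libraries at 9 of the 10 genes, Socs2 being the exception. Regions are named below by gene and by the signed distance of the peak centre from the TSS in bp. At Cish, whose protein competes with STAT5 for docking sites on receptors, the TSS region (Cish +33, chr9:107296452-107296948) had heights of 24.6 and 16.7 in control and 24.9 and 19.1 in IL-4 libraries. The groups overlapped, with a log2 change of 0.28 (SE 0.281, limma adjusted p = 0.853) that was 0.50 without control replicate 1 and 0.08 without control replicate 2. At Socs1, which inhibits JAK kinases directly, the TSS region (Socs1 +138, chr16:10785007-10785763) had heights of 6.04 and 9.98 in control and 7.64 and 9.98 in IL-4 libraries. The groups overlapped here too. The log2 change was 0.42 (SE 0.501, limma adjusted p = 0.883).

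At Socs3, which restrains gp130 receptors and JAK kinases, the TSS region (Socs3 +70, chr11:117969123-117969475) had heights of 14.9 and 7.16 in control and 11.1 and 8.14 in IL-4 libraries, with the IL-4 values inside the control range. At Socs2, which attenuates growth hormone signalling, no TSS region was shared. A peak of height 4.03 at Socs2 +54 was found in IL-4 replicate 1 alone and a peak of 2.27 at Socs2 -130 in control replicate 1 alone, and both carried the annotation of the neighbouring noncoding gene 5730420D15Rik. The Socs4 TSS region (-125), shared with the promoter of Wdhd1, had heights of 9.43 and 8.80 in control and 11.4 and 4.78 in IL-4 libraries, so the control values lay between the IL-4 values.

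The highest TSS region was that of Socs5 (-378, chr17:87106777-87107793). Its heights were 31.3 and 33.3 in control and 33.1 and 19.3 in IL-4 libraries, where only IL-4 replicate 2 was lower. At Socs7, an adaptor-like member, the TSS region (-244) had heights of 8.40 and 3.06 in control and 9.43 and 3.91 in IL-4 libraries, and replicate 1 was the higher in both groups. The Ptpn1 TSS region (-21, chr2:167932063-167932498) had heights of 11.1 and 19.6 in control and 17.8 and 6.41 in IL-4 libraries. The Ptpn6 TSS region (+4, chr6:124733003-124733365), whose heights were 18.4 and 14.7 in control and 18.5 and 9.80 in IL-4 libraries, also overlapped between groups. A further Ptpn6 TSS region, that of another transcript (Ptpn6 +36, chr6:124738564-124738773), had heights of 8.47 and 8.10 in control and 4.41 and 9.68 in IL-4 libraries. The control heights of Socs5 were close together. IL-4 replicate 2 was the lowest of the 4 libraries at Socs5 -378, Ptpn1 -21 and Ptpn6 +4, and the highest at Ptpn6 +36.

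Over the 4 libraries the mean TSS height fell from 29.2 ± 6.70 at Socs5 through 21.3 ± 4.10 at Cish, 16.9 ± 4.17 at Socs6, 15.3 ± 4.10 at Ptpn6, 13.7 ± 6.10 at Ptpn1, 10.3 ± 3.47 at Socs3, 8.59 ± 2.77 at Socs4 and 8.41 ± 1.93 at Socs1 to 6.20 ± 3.18 at Socs7 (SD, n = 4). Every neighbouring pair in this order overlapped in its range over libraries. These heights are not per length, and the Socs5 region, at 1017 bp, was also the longest of the 9.

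**Figure D2:**
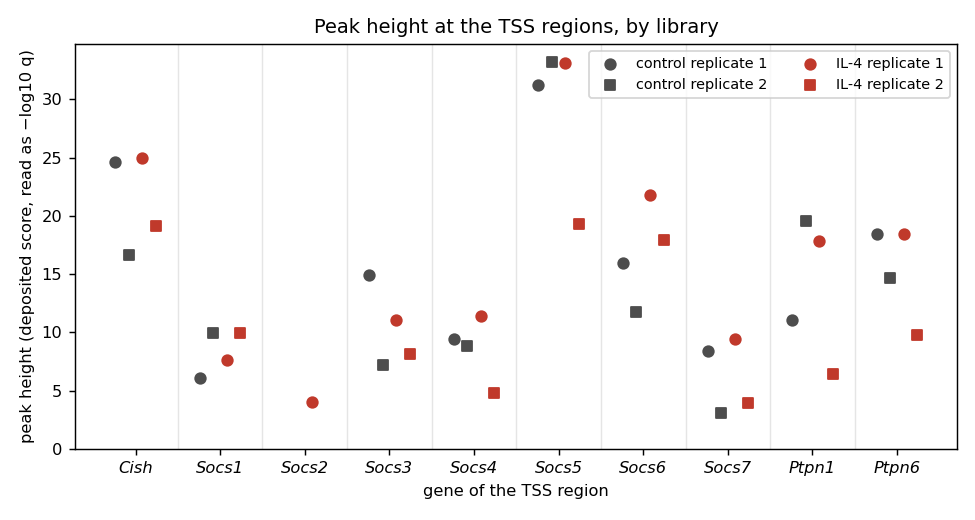
Peak height (y axis, deposited score read as −log10 q) at the TSS region of each gene (x axis), with 1 point per library. Both IL-4 heights lay above both control heights at Socs6 and at no other gene with 4 peaks (8.83% of all shared regions did so), and Socs2 had a single peak of 4.03.

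Socs6, whose protein has been linked to insulin and receptor tyrosine kinase signalling, was the gene whose TSS region separated the groups. The region (Socs6 -51, chr18:88893845-88894495) had heights of 16.0 and 11.8 in control and 21.8 and 17.95 in IL-4 libraries, and both IL-4 values exceeded both control values. Of all 25442 shared regions, 8.83% did the same, so 1 such region among the TSS regions of these genes is near the background. The log2 change was 0.73 (SE 0.329, 95% interval 0.07 to 1.39), with an unadjusted limma p of 0.0299 that did not pass adjustment over all 25442 regions (adjusted p = 0.553). The remaining shared regions of Socs6 ran mostly the other way. At Socs6 +48455, heights were 37.1 and 39.5 in control and 27.8 and 25.1 in IL-4 libraries, a log2 change of -0.42 (SE 0.210, limma adjusted p = 0.603). At Socs6 +55856, heights were 15.0 and 14.0 in control and 6.58 and 11.3 in IL-4 libraries, a log2 change of -0.54 (SE 0.431, limma adjusted p = 0.796). In both of these regions the groups did not overlap on the deposited scale. They were among 3 shared Socs6 regions with both IL-4 heights below both control heights, as in 29.3% of all shared regions. Of the 7 shared Socs6 regions, 5 had negative and 2 positive estimates, and that of Socs6 +55856 turned to 0.03 without IL-4 replicate 1.

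Among the 26 regions shared by the 4 libraries, no height differed past an adjusted p of 0.05 by limma. Over all 25442 such regions, 4 passed with higher (0.0157%) and 2 with lower (0.00786%) heights after IL-4, so a count of 0 among 26 regions is near the background. At an unadjusted p under 0.05, 1 of 26 passed (3.85%, against 8.28% of all). Both IL-4 heights lay above both control heights in 2 regions (7.69%, against 8.83%) and below them in 5 (19.2%, against 29.3%), both shares near those of all regions. The median log2 change was -0.05 over the 26 regions and -0.001 over all. The 50 regions without a peak in some library were not part of this fit.

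Besides Socs6 -51, large upward estimates were found at Socs1 and Socs3. At Socs1 +108682 (chr16:10676712-10677003, intron 18 of Clec16a), heights were 10.3 and 3.64 in control and 12.2 and 7.86 in IL-4 libraries. The log2 change of 0.93 was the highest of the 26 (SE 0.515, 95% interval -0.10 to 1.96, limma adjusted p = 0.647), but control replicate 1 exceeded IL-4 replicate 2. This estimate was 1.58 without control replicate 1 and 0.27 without control replicate 2. At Socs3 +22631 (chr11:117946545-117946994, intergenic), heights were 6.87 and 7.42 in control and 8.33 and 10.1 in IL-4 libraries. Here both IL-4 values were the higher ones, with a log2 change of 0.60 (SE 0.495, limma adjusted p = 0.804) that was 0.32 without IL-4 replicate 2 and 0.91 without IL-4 replicate 1. Socs7 -244 (0.52) and Socs1 +138 (0.42), described above, completed the upper 5. All 3 shared Socs3 regions had positive estimates, from 0.12 to 0.60, of which the lowest, at Socs3 +70, turned negative without normalisation (-0.12) and without control replicate 2 (-0.33).

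Ptpn1 had 4 shared regions and all 4 estimates were negative, from -0.40 to -0.23. Upstream of the gene, at Ptpn1 -7076 (chr2:167924946-167925643), heights were 31.2 and 23.4 in control and 24.2 and 13.8 in IL-4 libraries, which overlapped (log2 change -0.40, SE 0.271, limma adjusted p = 0.742, and -0.15 without IL-4 replicate 2 or -0.64 without IL-4 replicate 1). In intron 1, Ptpn1 +10785 (chr2:167942888-167943306) had heights of 8.66 and 7.70 in control and 5.42 and 5.70 in IL-4 libraries, a log2 change of -0.30 that was -0.10 without IL-4 replicate 1 and -0.49 without IL-4 replicate 2. Also in intron 1, Ptpn1 +17079 (chr2:167949170-167949573) had heights of 21.9 and 19.7 in control and 16.6 and 13.3 in IL-4 libraries, a log2 change of -0.28. Both intronic regions separated the groups on the deposited scale, where 29.3% of all regions did so in this direction. After quantile normalisation the intervals of all 4 Ptpn1 regions included 0. The sign of the TSS region (-0.23) turned without control replicate 2 (0.28) or without IL-4 replicate 2 (0.33).

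**Figure D3:**
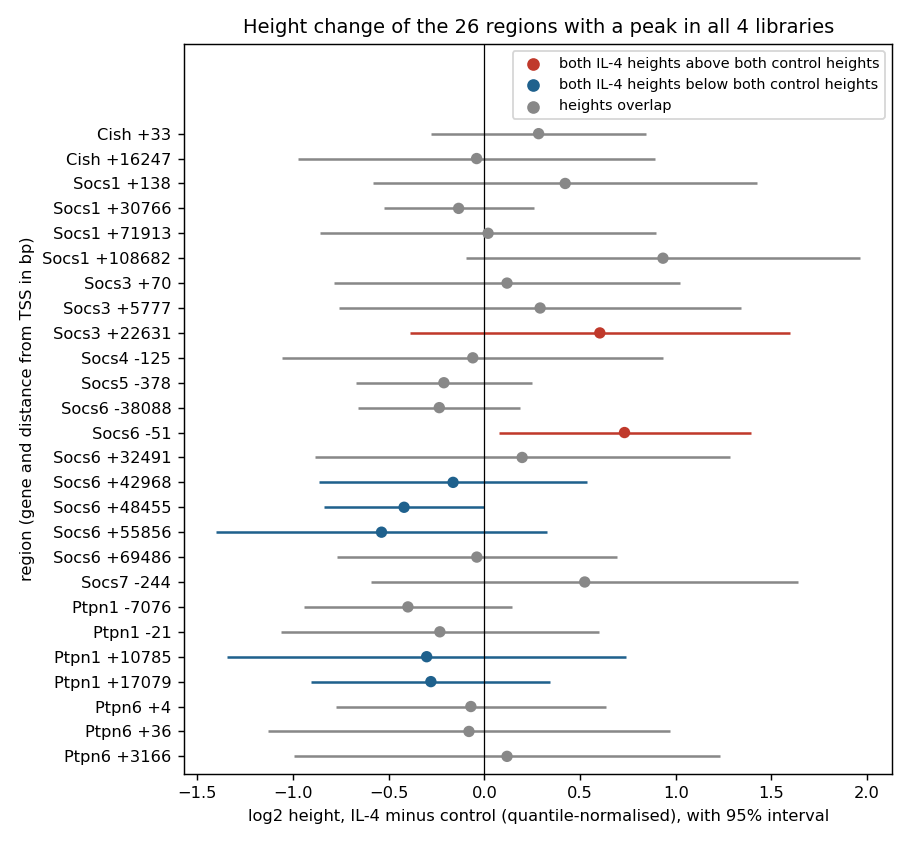
Log2 height after IL-4 minus control (x axis, quantile-normalised) for each of the 26 regions present in all 4 libraries (y axis), with the 95% interval of the fit. The interval of Socs6 -51 (0.07 to 1.39) lies above 0, and the other 25 reach or cross 0.

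Regions with peaks in both libraries of a single group were found at 4 of the 10 genes, Socs3, Socs6, Socs7 and Ptpn1. There were 3 in the IL-4 group and in no control library (3.95% of 76, against 2.53% of all regions), and 6 in the control group and in no IL-4 library (7.89%, against 4.33%). Both counts move with the libraries used. With 1 library left out, and the reduced group judged on its remaining library, IL-4-only regions numbered 16 without IL-4 replicate 2 (21.3%, against 9.97% of all regions) and 5 without either control library (7.14%, against 5.90% and 4.59%). Without IL-4 replicate 1 they numbered 4, a share below that of all regions (6.35%, against 10.2%). Control-only regions numbered 12 without control replicate 1 (17.1%, against 12.4%) and 14 without control replicate 2 (20.0%, against 14.9%). They numbered 9 without IL-4 replicate 1 (14.3%, against 10.9%) and 8 without IL-4 replicate 2 (10.7%, against 7.72%). Among peaks above the pooled median height of 7.37, 1 region was counted in each class (2.70% each, while the IL-4-only class took 1.89% and the control-only class 5.85% of all regions). The IL-4-only region was Socs6 +73905. The control-only region was none of the 6, which lacked 2 control heights above this cut. It was Ptpn1 +10785, present in all 4 libraries, where the cut kept the control heights (8.66 and 7.70) and removed those of IL-4 (5.42 and 5.70).

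The strongest of these was Socs6 +73905, an intergenic region of 323 bp at chr18:88820132-88820454. Its heights were 22.2 and 14.3 in the IL-4 libraries, with no peak in either control library. At Socs6 +128855 (chr18:88765232-88765497) the IL-4 heights were lower, at 7.68 and 4.93. At Socs7 +37953 they were 6.62 and 5.29, in the 196 bp shown above, which lie 1858 bp from the end of Socs7 and 3762 bp from Arhgap23. The height of Socs6 +73905 was close to that of the Socs6 TSS region in IL-4 replicate 1 (22.2 against 21.8) and below it in IL-4 replicate 2 (14.3 against 17.95).

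The 6 control-only regions had heights of 2.39 to 10.6, all below those of Socs6 +73905 but overlapping those of the other IL-4-only regions. At Ptpn1 -98632 (chr2:167833616-167833774) the control heights were 7.79 and 2.95, and at Ptpn1 -25345 (chr2:167906901-167907053) they were 6.74 and 4.95. A separate peak of 2.95 in IL-4 replicate 1 lay next to the former, at -98350. At Socs3 -5599 (chr11:117974867-117975077) the heights were 5.73 and 3.17, and at Socs3 +27718 (chr11:117941590-117941779) they were 3.52 and 4.79. Upstream of Socs6, the heights were 4.75 and 10.6 at Socs6 -30291 (chr18:88924416-88924571) and 2.39 and 5.14 at Socs6 -16188 (chr18:88910323-88910470). The last was no longer control-only when peaks within 500 bp were merged, since a neighbouring region had a peak of 7.04 in IL-4 replicate 1. Ptpn1 -98632 was lost in the same way, joined to the peak at -98350. Merging thus left 4 control-only regions (6.06%, against 4.13% of all regions so merged). At 1 bp overlap, the 2 control-only regions of Socs6 lay upstream and its 2 IL-4-only regions downstream of the gene, out of 19 regions. Of the upstream pair only Socs6 -30291 stayed control-only when peaks within 500 bp were merged. The gene name gives only the nearest TSS.

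**Figure D4:**
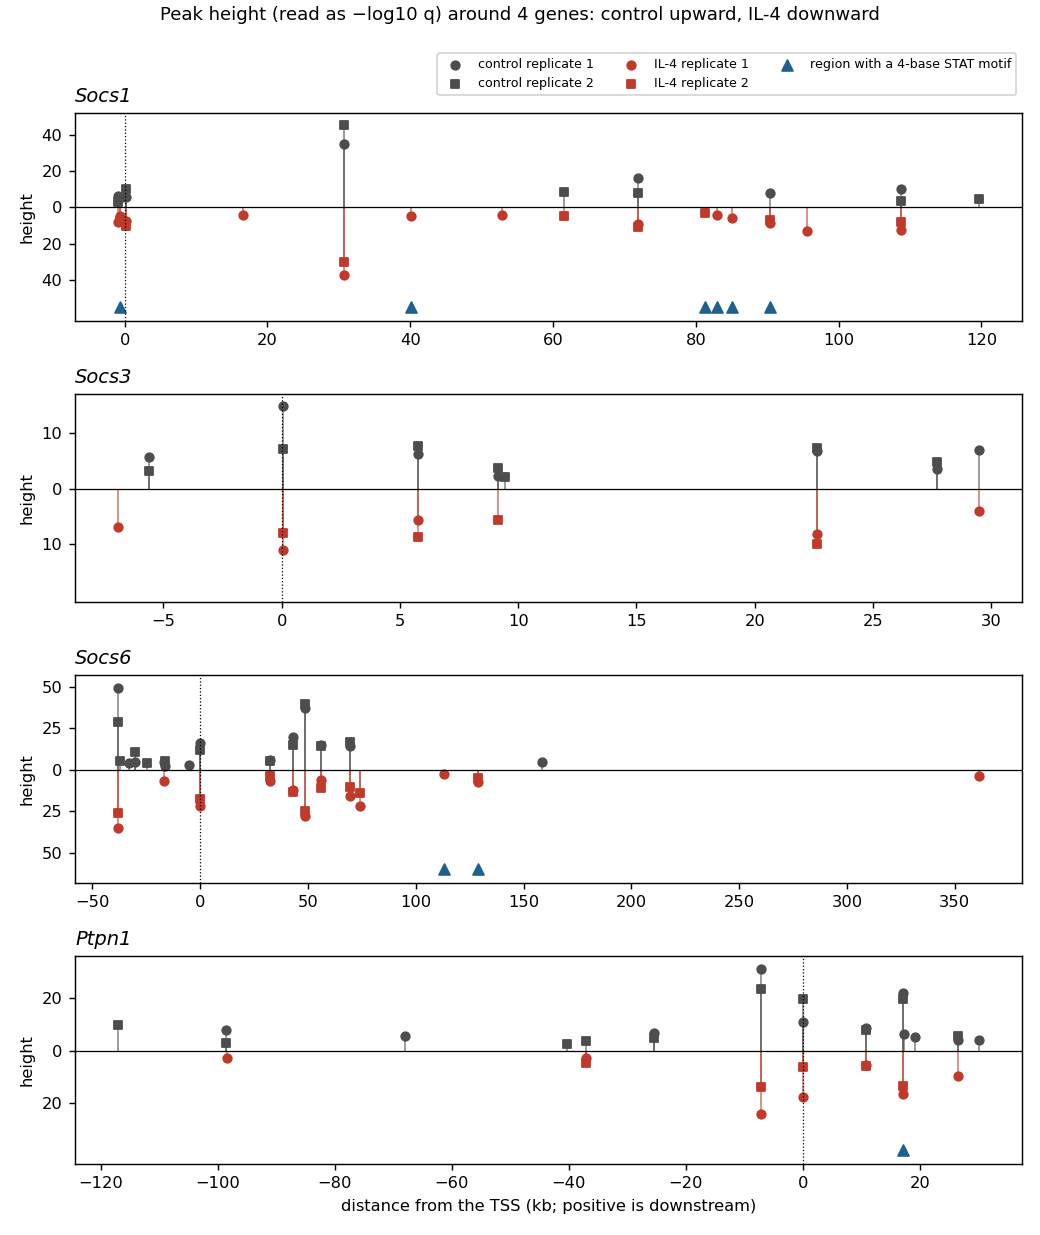
Peak height (y axis, control upward and IL-4 downward) against distance from the TSS in kb (x axis) at 4 genes, with 1 point per library and triangles under regions with a 4-base STAT match. The points of Socs6 at 73.9 kb are in the IL-4 libraries alone (22.2 and 14.3), and 6 of the 16 Socs1 regions carry a triangle.

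The 4-base STAT spacing, which STAT6 binds, was found in 10 of the 76 regions (13.2%, 95% Wilson interval 7.31 to 22.6%) and in 7.22% of all regions, at similar median lengths (210.5 and 209 bp). Among regions in at least 2 libraries the shares were 10.4% and 8.30%, and among regions in all 4 libraries they were 7.69% (2 of 26) and 8.92%. Of the 10, 6 were Socs1 regions, 2 were Socs6 regions, and Socs5 and Ptpn1 had 1 each. Of the 9 Socs1 regions with a peak in more IL-4 than control libraries, 6 held the spacing, against 0 of the 7 others. Among the other 9 genes it was 2 of 12 with more IL-4 libraries, 0 of 23 with more control libraries and 2 of 25 with equal numbers. Over all 60710 regions the shares were 11.8%, 2.40% and 8.12%, so the same order is found genome-wide. These shares are descriptions without a test, regions of a gene share a locus, and 4 of the 6 Socs1 regions rest on a peak in a single IL-4 library (heights 3.02 to 5.84).

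The other 2 Socs1 regions with this spacing had peaks in both IL-4 libraries and in control replicate 1. The heights at the promoter region Socs1 -583 (chr16:10785848-10786228), with 3 matches, were 5.18 in control replicate 1 and 4.63 and 7.35 in IL-4 libraries. Only 16 of 60710 regions (0.026%) held 3 or more. Of the 2543 regions within 20 bp of its length, 0.08% held 3 or more and 10.4% held at least 1. Socs1 -583 lies within 500 bp of Socs1 +138, which had peaks in all 4 libraries. It also lies within 500 bp of a region with peaks in both control libraries and IL-4 replicate 1. Merging peaks within 500 bp joins them into a region present in all 4 libraries, so Socs1 -583 then no longer has more IL-4 than control libraries. At Socs1 +90358 (chr16:10695071-10695331), with 2 matches, the heights were 8.07 in control replicate 1 and 8.34 and 6.71 in IL-4 libraries. Of the 6065 regions within 20 bp of its length, 0.41% held 2 or more. Both regions were chosen for description after their matches were seen.

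The 3-base spacing was found in 15 of 76 regions (19.7%, 95% Wilson interval 12.3 to 30.0%), against 6.90% of all regions. Among regions with a peak in all 4 libraries it was found in 8 of 26 (30.8%, against 9.42%), although these member regions were longer (median 390 against 325 bp). Within 200 bp around the centre of the highest peak the shares were 23.1% and 5.47%. The Cish TSS region held 4 matches, shown above, and 2 of the 60710 regions held 4 or more. Of the 1237 regions within 20 bp of its length, 1 held 4 or more (0.08%), which was the Cish region itself. Socs1 and Socs3 had 4 such regions each. None of the 3 IL-4-only and 6 control-only regions held it, and of these 9 only Socs6 +128855 held the 4-base spacing.

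RefSeq promoter sequences, cut to the 250 bases before the TSS, were matched for 6 of the 10 genes (Cish, Socs1, Socs3, Socs4, Ptpn1 and Ptpn6). None of the 6 held the 4-base spacing, found in 5.85% of 32851 promoters, and Socs3 alone held the 3-base spacing, at -154 (7.02% of promoters). This Socs3 match lies outside the region Socs3 +70. In a window of 300 bases that runs past the TSS, Cish also held the 3-base spacing, with 2 matches (8.30% of promoters held it). The Ptpn6 sequence lies at the TSS of Ptpn6 +36, not at that of Ptpn6 +4. The Socs1 matches lie farther upstream than either window. For comparison, the AP-1 site was found in 12 of the 76 regions (15.8%, against 18.1%), with 3 matches at Socs1 +30766, the highest region of that gene, chosen after its values were seen (35.4 and 45.4 in control and 37.6 and 30.3 in IL-4 libraries). The site of PU.1, the macrophage lineage factor, here GAGGAAGT on either strand, was found in 13 (17.1%, against 9.87%).

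**Figure D5:**
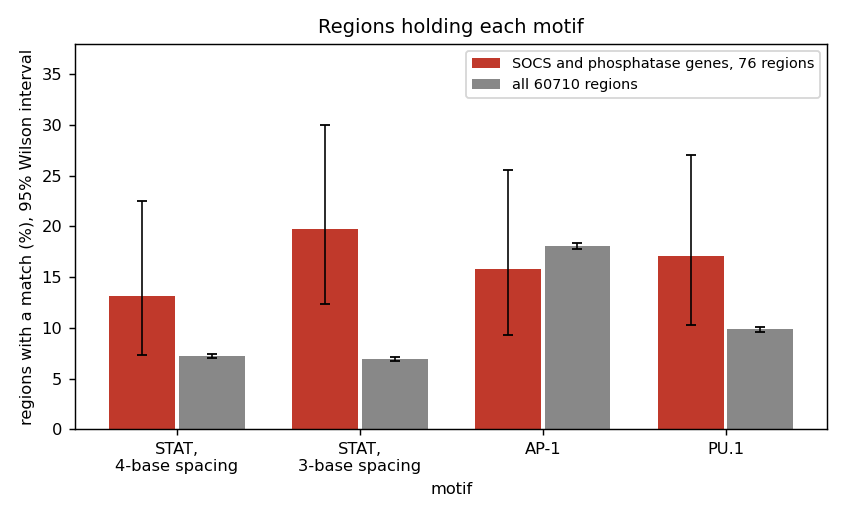
Share of regions that hold each motif (y axis, percent, with 95% Wilson intervals for counting error) for the SOCS and phosphatase genes and for all regions (x axis, 4 motifs). The 3-base STAT spacing stands at 19.7% against 6.90%, and AP-1 at 15.8% against 18.1%.

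Other genes of the IL-4 and JAK-STAT pathway were counted for comparison. The list of 24 genes had 144 regions, of which 57 were present in all 4 libraries, and 0 of 57 passed limma in either direction (lowest adjusted p = 0.151), while 8 had an unadjusted p under 0.05 (14.0%, against 8.28% of all regions). By role, the median log2 change was 0.01 over 6 regions of receptor chains, -0.17 over 14 of kinases, -0.14 over 10 of STAT factors and 0.25 over 27 of other restraints of the pathway, against -0.001 over all regions. IL-4-only regions numbered 7 (4.86%, against 2.53%), of which Cblb, a ubiquitin ligase, had 3, the kinase gene Jak2 had 2, and Il13ra1 and Ptpn2 had 1 each. Control-only regions numbered 3 (2.08%, against 4.33%), at Stat4, Jak3 and Il2rg, which encode a transcription factor, a kinase and a receptor chain.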

How the data were processed

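The authors prepared ATAC-seq libraries from nuclei with the Nextera kit, aligned reads to mm10 with BWA and called peaks with MACS2 separately per library, without pooling replicates, removed blacklisted regions and annotated peaks with HOMER. The submitters' processing notes name BWA 0.7.10, SAMtools 0.1.19, MACS2 2.0.10 and HOMER 4.2. Tn5 shifting and duplicate removal are not given in the sources used here. The deposited peak score, on a −log10 scale, was read as −log10 q because its minimum was 1.30 to 1.32, close to a q of 0.05. The methods name a stricter q, equal to a minimum of 2, but 133 to 603 peaks per library scored under 2, so the reading is not certain. It is no count, depth is unknown, and the count test of the study (DiffBind) could not be run.

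All 168575 peaks of the autosomes, X and Y (12 others left out) were merged at 1 bp overlap with pandas 2.3.3. Regions shared by the 4 libraries were tested by group, on quantile-normalised log2 heights, with limma 3.58.1 in R 4.3.3 (eBayes with trend, Benjamini-Hochberg, 0.05), after testing on simulated data. Exact permutation tests used scipy 1.17.1. Sequences came from GRCm38.p6, and 160 of 196 member peaks had the RefSeq TSS distance within 2 bp. Wilson intervals cover counting error only. Named regions were the TSS region of each gene, regions of a single group, the 5 largest changes in each direction and any passing limma. Others are described by counts, or as chosen after their values were seen. Scaling, filter, merging, block and leave-one-out alternatives were tried. Members, lists and motifs were chosen with earlier results of these data known. The result of 1 further marker list is not reported here.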

Additional observations from a re-analysis of the deposited data

How the results depend on the processing

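The number of member regions that passed limma was 0 in each direction under every alternative of scaling, filter, merging, block and left-out library. The median log2 change of -0.05 became -0.26 without normalisation, where the median over all regions was -0.21, and ranged from -0.07 to 0.06 when a library was left out. IL-4-only regions (3) numbered 1 above the pooled median height (2.70%, against 1.89% of all regions) and 7 when a peak in 1 library of the other group was tolerated (9.21%, against 7.15%). With a library left out they ranged from 4 (6.35%, against 10.2%) to 16 (21.3%, against 9.97%). Control-only regions (6) numbered 1 above the pooled median height (2.70%, against 5.85% of all regions), and that 1 was none of the 6. They numbered 4 with peaks within 500 bp merged (6.06%, against 4.13%) and 11 with a tolerated peak (14.5%, against 13.0%). With a library left out they ranged from 8 (10.7%, against 7.72%) to 14 (20.0%, against 14.9%). The difference in peak number (-3.0) ranged from -9.5 to 3.5 with a library left out, being positive without IL-4 replicate 2. Of 183 values of 16 named regions under alternatives, 12 changed sign. Without normalisation Socs3 +70 fell to -0.12, and merging within 500 bp moved Socs4 -125 to 0.10. With a library left out, the sign turned in 8 regions, whose values ranged from -0.79 to 0.33 at Ptpn1 -21, -0.35 to 0.21 at Ptpn6 +4, -0.049 to 0.85 at Socs1 +138, -0.33 to 0.54 at Socs3 +70, -0.52 to 0.40 at Socs4 -125, -0.45 to 0.024 at Socs5 -378, -0.13 to 1.16 at Socs7 -244 and -1.08 to 0.028 at Socs6 +55856. The weaker control height of Socs6 -16188 lay 2.29 below the highest IL-4 height (-2.29) with peaks within 500 bp merged, since the merged region holds a further IL-4 peak. That of Ptpn1 -98632 equalled the highest IL-4 height under the same merging (a difference of 0.0), also through a further IL-4 peak. The cause of the other changes was not tested.

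The replicate numbers are shared by both groups, but nothing in the sources pairs the samples. Deviations of same-numbered libraries from their group means correlated at r = 0.0068 over 25442 regions. With the replicate number as a block, 0 member regions passed and the median was -0.05. Depth is unknown, and an absent peak says only that the library had none past the caller's threshold.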
